A study of Rattus norvegicus with 6 samples.

Results

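The muscle microRNAs (miRNAs) miR-1, miR-133 and miR-206 were followed in rat left ventricle 24 h after coronary ligation. The group was defined by name and not from measured values, but with earlier results of these data known. It holds rno-miR-1-3p, rno-miR-1-5p, rno-miR-133a-3p, rno-miR-133a-5p, rno-miR-133b-3p, rno-miR-133b-5p, rno-miR-133c and rno-miR-206-3p (rno marks the rat, and is left out below). All 8 were found among the 758 miRNAs of the array, and 7 of the 8 were detected well enough to be tested.

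Myocardium of male rats aged 8 weeks was profiled on 6 single-colour Agilent miRNA arrays, 1 array per sample. In 3 samples, taken 24 h after the operation, the left coronary artery had been ligated, which cuts the blood supply of part of the left ventricle and produces a myocardial infarction (MI). The other 3 samples, with a labelled time of 0 h, came from controls whose chest was opened in the same way without ligation of the artery, so ligation and time cannot be told apart. Neither the strain nor a transgene is named in the labels, and no label links a sample to an animal of its own, so p-values cover only the spread among these 6 arrays, which may be technical. MI rats were kept where electrocardiography and other signs showed that the model had worked. The labels do not say whether the tissue was infarcted, bordering or remote muscle.

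MiRNAs are short RNAs cut from a hairpin precursor. Each hairpin can yield a 5p and a 3p strand, of which the more abundant one usually acts as the guide that pairs, mainly through its seed (bases 2 to 8), with target messenger RNAs. MiR-1 and miR-133 are made from shared transcripts in heart and skeletal muscle. MiR-1 promotes muscle differentiation and miR-133 restrains growth in heart, while miR-206 is known as a skeletal muscle miRNA. In heart, loss of miR-1 and miR-133 is linked to arrhythmia, hypertrophy and fibrosis in mouse models.

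The 8 mature sequences are shown because they decide which members can share targets and which could be mistaken for each other on an array. They were taken from RefSeq (GRCr8), which held all 8, and are written 5′ to 3′ with the seed in capitals.
miR-1-3p: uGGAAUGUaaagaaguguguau
miR-206-3p: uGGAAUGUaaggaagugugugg
miR-133a-3p: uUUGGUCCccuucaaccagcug
miR-133b-3p: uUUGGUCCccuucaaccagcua
miR-133c: cAGCUGGUugaaggggaccaa
miR-1-5p: gCACAUACuucuuuauguaccc
miR-133a-5p: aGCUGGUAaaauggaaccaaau
miR-133b-5p: gCUGGUCAaacggaaccaagu

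The members carry 6 different seeds. MiR-1-3p and miR-206-3p share the seed GGAAUGU and differ at 3 of 22 bases, A11G, A21G and U22G (the miR-1-3p base first, positions from the 5′ end). MiR-133a-3p and miR-133b-3p share UUGGUCC and differ only at the last of 22 bases, G22A. MiR-133c, in spite of its name, shares no seed with them. All 21 bases of miR-133c are the reverse complement of miR-133a-3p from base 2 onward, since its hairpin gene Mir3582 overlaps all 87 bases of Mir133a1 on the opposite strand. The 5p strands each have a seed that no other member carries.

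The genes lie in 2 clusters of GRCr8. Mir133a1 (chr18:2157872-2157958, minus strand) and Mir1 (chr18:2160327-2160413, minus strand) are separated by 2368 bases, and both lie inside the span of the protein-coding gene Mib1. Mir206 (chr9:30590697-30590780, plus strand) and Mir133b (chr9:30594582-30594665, plus strand) are separated by 3801 bases inside the long non-coding RNA gene LOC120094648. The Mir133a1 hairpin is shown because its arms gave different values after MI, with the 5p strand (first) and the 3p strand (second) in capitals.
Mir133a1: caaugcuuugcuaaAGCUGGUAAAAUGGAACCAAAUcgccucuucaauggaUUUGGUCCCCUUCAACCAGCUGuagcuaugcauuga

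Of the 7 tested members, miR-133a-5p was lower in every MI sample than in every control, 1.32-fold on average, and narrowly missed the threshold over all miRNAs. The 3p guide strands of miR-1, miR-133a and miR-133b, the abundant muscle miRNAs, differed from the controls by -0.10 to 0.012 on the log2 scale. MiR-206-3p was higher in MI replicates 1 and 2 and lower in MI replicate 3. In limma with Benjamini-Hochberg adjustment, 0 of the 7 passed an adjusted p of 0.05, where 2.45% of all 449 tested miRNAs did (0.668% lower). These were 8 higher and 3 lower miRNAs, and 5 higher and 5 lower with median scaling or with the 75th percentile over all probes. At an unadjusted p under 0.05, it was 1 of 7 in limma, lower after MI, against 13.6% of all tested miRNAs (5.12% lower). The groups did not overlap for 1 of 7 members, lower after MI, against 20.7% of all tested miRNAs (9.8% lower). The median log2 difference of the 7 was -0.014, and that of all tested miRNAs 0.016. Of the 7, 3 lay above 0 and 4 below, against 45.2% below 0 among all tested miRNAs.

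**Figure D1:**
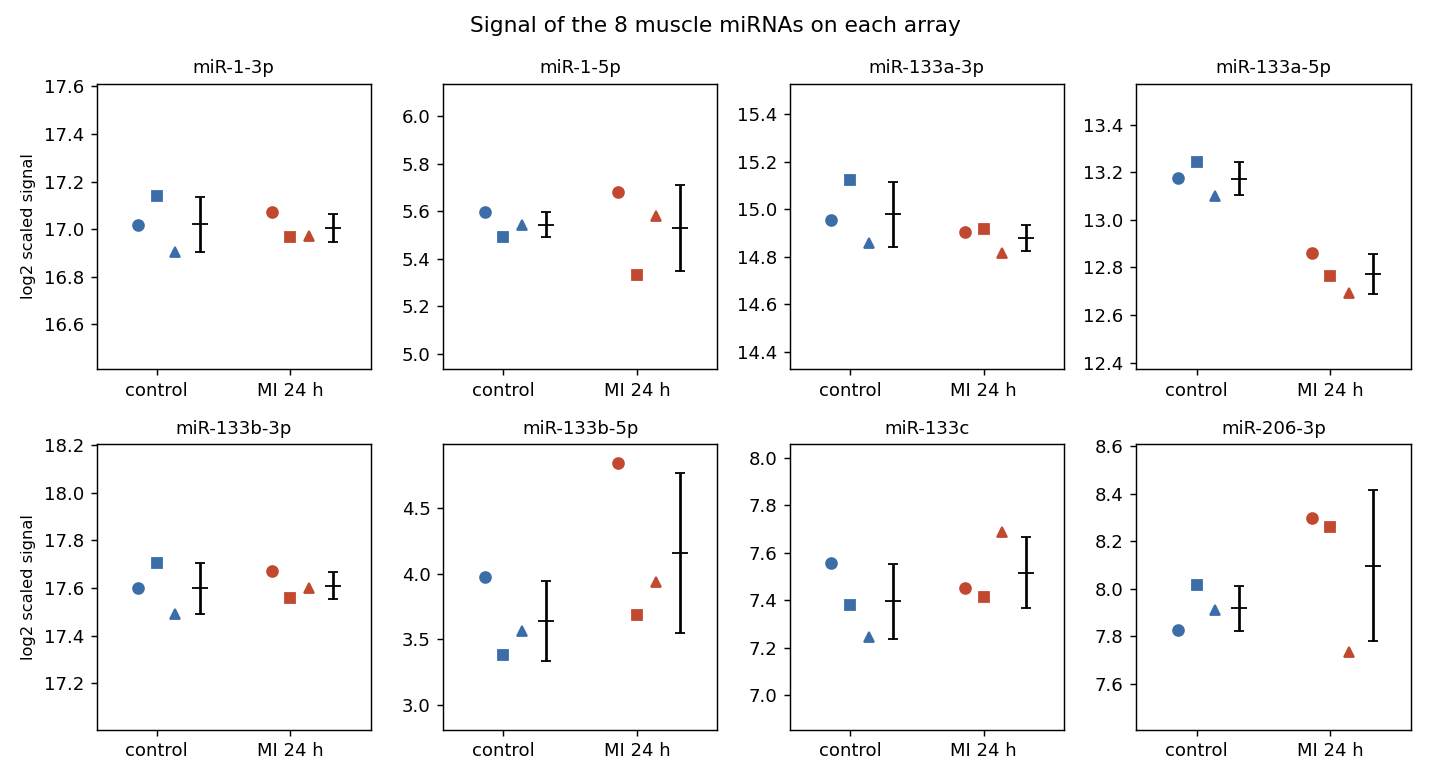
Log2 scaled signal (vertical axis, 1 panel per miRNA, axes of different range) on the 3 control arrays (blue) and the 3 MI arrays (red), with circles, squares and triangles for replicates 1, 2 and 3 and bars for mean ± SD. MiR-133a-5p alone shows MI arrays, at 12.69 to 12.86, all below the controls, at 13.10 to 13.24.

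Values are log2 scaled signals, the summed brightness of a miRNA's probes after the arrays were brought to a common level. MiR-1-3p, the main product of Mir1, had a log2 scaled signal of 17.02, 17.14 and 16.90 in control replicates 1 to 3 and of 17.07, 16.97 and 16.97 in MI replicates 1 to 3. The MI values lay inside the control range. The log2 difference, MI minus control, was -0.015 ± 0.08 (SE, n = 3 per group) with a 95% confidence interval from -0.22 to 0.19 (limma adjusted p = 0.946). Its sign turned under 6 of 26 alternative settings, none of them a change of scaling alone.

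MiR-133b-3p is annotated as the guide strand from the chromosome 9 cluster, but whether its probes also read miR-133a-3p was not tested. It stood at 17.60, 17.71 and 17.49 in the controls and at 17.67, 17.56 and 17.60 after MI. All 3 MI values again lay within the control range. Its log2 difference was 0.012 ± 0.08 (95% interval -0.18 to 0.21, limma adjusted p = 0.960), and its sign turned under 8 of 26 alternative settings, among them no scaling, median scaling and scaling over all probes.

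MiR-133a-3p, from the same transcript as miR-1, gave log2 signals of 14.95, 15.13 and 14.86 in controls and of 14.90, 14.92 and 14.82 in MI samples. The MI values lay below the control mean in 3 of 3 samples, but the groups overlapped. The log2 difference was -0.10 ± 0.09 (95% interval -0.31 to 0.12, limma adjusted p = 0.656). It was -0.0094 with quantile normalization, -0.030 with normexp, -0.19 with median scaling and -0.027 without control replicate 2.

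MiR-206-3p, the skeletal muscle relative of miR-1, differs from miR-1-3p at 3 of 22 bases. Its log2 ratio of signal over miR-1-3p was -9.10 in controls, a difference in brightness that was not read as a ratio of amounts. Take-up of miR-1-3p by the probes of miR-206-3p was not tested. The log2 signals of miR-206-3p were 7.83, 8.02 and 7.91 in the controls and 8.30, 8.26 and 7.73 after MI. MI replicates 1 and 2 were above all controls and MI replicate 3 was below all of them. The SD was 0.09 in controls and 0.32 after MI, the latter larger than that of 88.6% of tested miRNAs among the MI arrays. The log2 difference was 0.18 ± 0.16 (95% interval -0.21 to 0.57, limma adjusted p = 0.656). Leaving out MI replicate 3 gave 0.36 with a limma adjusted p of 0.157, the lowest in a range up to 0.931 among the settings tried. Leaving out MI replicate 1 gave 0.048. Within the 4 arrays of header code 1, described below for miR-133a-5p, it was 0.38 (limma adjusted p = 0.400), and with the code as a block 0.38 (limma adjusted p = 0.544).

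MiR-133a-5p, the strand opposite miR-133a-3p in the Mir133a1 hairpin shown above, had log2 signals of 13.18, 13.24 and 13.10 in controls and of 12.86, 12.76 and 12.69 after MI. The nearest values of the groups, control replicate 3 and MI replicate 1, were further apart than the controls were among themselves. The means were 13.17 ± 0.07 (SD, n = 3) and 12.77 ± 0.09 (SD, n = 3), and the log2 difference was -0.40 ± 0.08 (SE, 95% interval -0.59 to -0.21). Its unadjusted limma p of 0.00171 was the 12th smallest of 449, and the adjusted p of 0.0619 stood just past the threshold that 11 miRNAs met. It was met with trend and robust settings (limma adjusted p = 0.0318), with median scaling (0.0418) and with the 75th percentile over all probes (0.0498), and over all alternatives the limma adjusted p lay between 0.0318 and 0.448.

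The file headers give each array a code of 1 or 2, whose meaning is not stated. The 3 controls share code 1 with a single MI array, replicate 1, and the remaining MI arrays carry code 2. Within code 1 alone, a comparison added after seeing the data, miR-133a-5p had a log2 difference of -0.31 (limma adjusted p = 0.435), and with the code as a block it was -0.31 (limma adjusted p = 0.448). Code 2 holds MI samples only and gives no value of its own. In the 5 arrays of the first scan, which leave out control replicate 3, the difference was -0.44 (limma adjusted p = 0.149).

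MiR-1-5p, the minor strand of Mir1, gave dim signals, with log2 values of 5.60, 5.49 and 5.54 in controls and of 5.68, 5.33 and 5.58 after MI. The MI samples spread on both sides of the controls. The log2 difference was -0.014 ± 0.10 (95% interval -0.26 to 0.23, limma adjusted p = 0.960).

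MiR-133b-5p, the minor strand of Mir133b, was detected on 0 of 3 control arrays and on 2 of 3 MI arrays, so it was not tested. A miRNA counts as detected where a probe stands well above background. Its log2 signals were 3.98, 3.38 and 3.57 in controls and 4.84, 3.69 and 3.94 after MI, and only MI replicate 1 stood above every control. The log2 difference of the means was 0.52, with the undetected arrays at their measured signal, and the groups overlapped. It was 0.14 without MI replicate 1, 0.16 with the floor 4 times as high and 0.063 with normexp background correction. The software's own flag marked this miRNA as detected on all 6 arrays.

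MiR-133c, the miRNA annotated on the strand opposite Mir133a1, had log2 signals of 7.56, 7.38 and 7.24 in controls and of 7.45, 7.41 and 7.69 after MI. Control and MI values interleaved. Without MI replicate 3 the difference was 0.039, and without control replicate 3 it was 0.046. The log2 difference was 0.12 ± 0.11 (95% interval -0.15 to 0.40, limma adjusted p = 0.674), opposite in sign to that of miR-133a-3p.

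**Figure D2:**
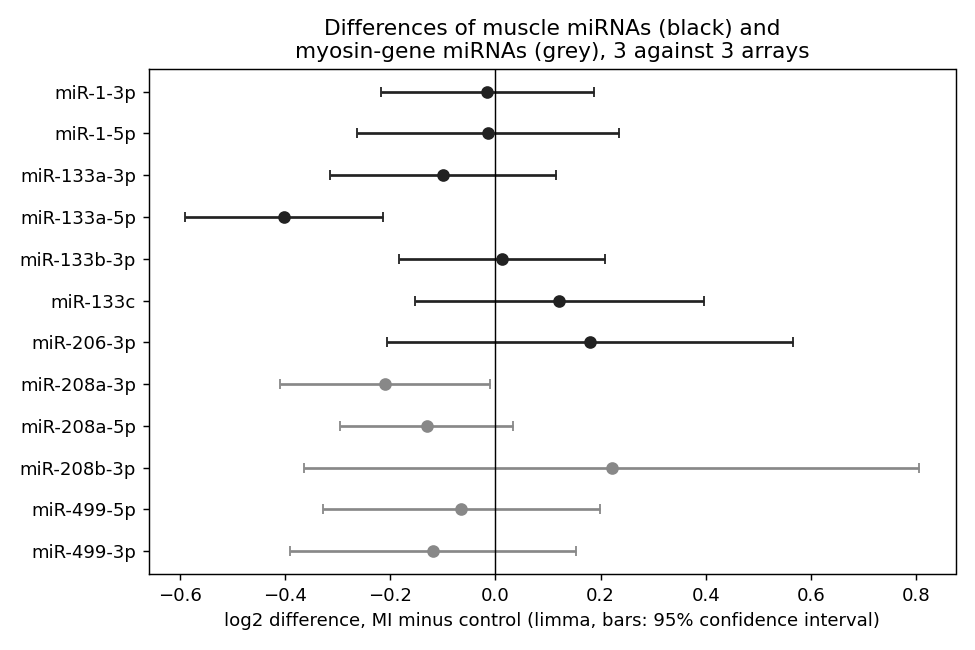
Log2 differences, MI minus control, from limma (horizontal axis) with 95% confidence intervals for the 7 tested muscle miRNAs (black) and the 5 tested miRNAs of the myosin genes (grey). The intervals of miR-133a-5p and miR-208a-3p lie below 0, and the others include 0.

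Each miRNA was read by several probes, and these were compared because the deposited files do not give the probe sequences. For miR-133a-5p, the log2 difference was -0.43 in probe 1 and -0.38 in probe 2, and in each probe the MI arrays lay below all controls. The replicate spots of these probes had a coefficient of variation between 1.42% and 5.30% on single arrays. The probes of miR-133a-3p gave -0.14 and -0.09, with overlapping groups in each. Those of miR-206-3p gave 0.20 and 0.17, and in each MI replicate 3 was the lowest of the 6 arrays. Of the 4 probes of miR-1-5p, 2 were well above background on all 6 arrays, and their spots varied by up to 19.1%. Whether the probes of miR-133a-3p and miR-133b-3p, which differ by G22A alone, take up each other's miRNA was not tested.

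**Figure D3:**
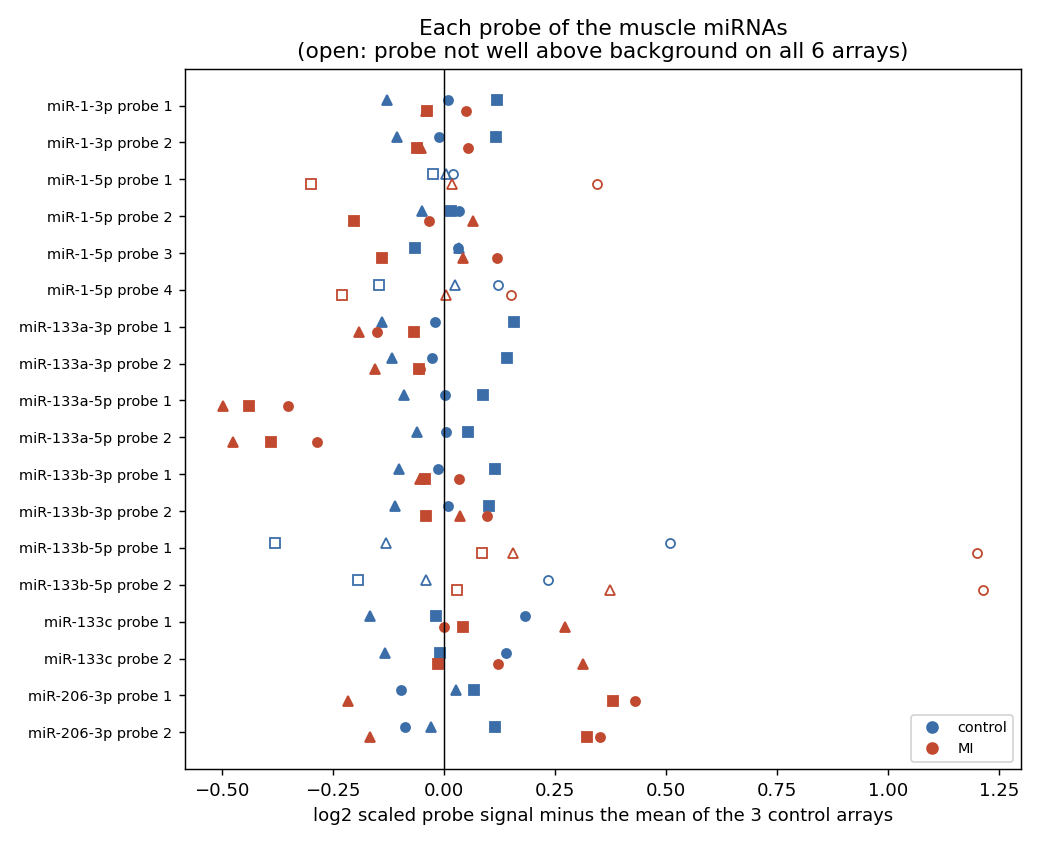
Log2 scaled signal of each probe minus its mean over the 3 controls (horizontal axis) on control arrays (blue) and MI arrays (red), with circles, squares and triangles for replicates 1 to 3 and open symbols for probes not well above background on all 6 arrays. The probes of miR-133a-5p lie apart by group at -0.43 and -0.38, while those of the other members overlap.

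A single scaling factor per array cancels in a ratio within that array, while quantile normalization does not, and only their change between groups was read. The log2 ratio of miR-133a-3p over miR-133a-5p, the 2 strands of the hairpin, was 1.78, 1.88 and 1.76 in controls and 2.04, 2.15 and 2.12 after MI. All MI arrays lay above all controls. The mean ratio was higher by 0.30, and the exact two-sided permutation test gave p = 0.1, the smallest that 3 against 3 samples allow, and 0.5 after adjustment over the 5 ratios examined. Among 110 hairpins with both strands detected on all arrays, the 3p over 5p ratio of 25.5% did not overlap between groups, and 20.9% had a difference at least as large as that of miR-133a.

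The strand ratio of miR-1 had log2 values of 11.42, 11.65 and 11.36 in controls and of 11.39, 11.64 and 11.39 after MI. The groups nearly coincided. The mean difference was -0.00129 (exact permutation p = 1), the smallest of the 110 in size. The log2 ratio of miR-133a-3p over miR-133b-3p differed by -0.11 (exact permutation p = 0.2), that of miR-133a-3p over miR-133c by -0.22 (p = 0.3) and that of miR-206-3p over miR-1-3p by 0.20 (p = 0.4), all with overlapping groups and an adjusted p of 0.5. Single arrays moved these differences. The ratio of miR-206-3p over miR-1-3p differed by 0.096 without MI replicate 2 and by 0.36 without MI replicate 3, and that of miR-133a-3p over miR-133c by -0.10 without MI replicate 3 and by -0.14 without control replicate 2. With quantile normalization the ratio of miR-133a-3p over miR-133b-3p differed by -0.011 and that of miR-133a-3p over miR-133c by -0.081.

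**Figure D4:**
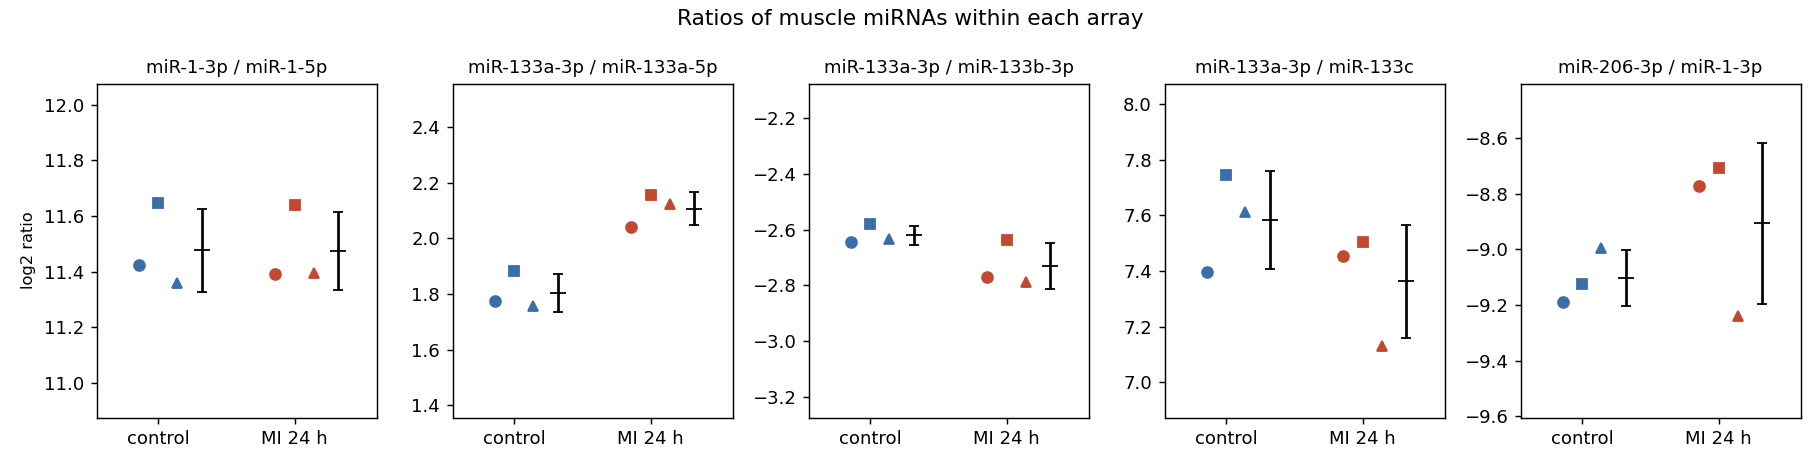
Log2 ratios of pairs of muscle miRNAs within each array (vertical axis, panels of different range) for controls (blue) and MI (red), with symbols for replicates as above and bars for mean ± SD. The miR-133a strand ratio is 1.76 to 1.88 in controls and 2.04 to 2.15 after MI, and the other 4 ratios overlap.

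The authors' processed values, on a log2 scale, add a limit for the brightest members. In that table miR-133b-3p ranked 2 and miR-1-3p ranked 4 in signal on all 6 arrays, and each has a single value on every array, 16.58 and 15.99. Their difference between groups is therefore 0 by the construction of that table, whose columns share their median of 3.95 and their upper quartile of 7.04. There miR-133a-5p held 4 distinct values, with 12.07 on each control array and 11.85, 11.65 and 11.71 on the MI arrays. This was a log2 difference of -0.33 (limma adjusted p = 0.0910). The identical control values again follow from the construction of that table, so they are not a measured spread among controls. The difference of miR-206-3p was 0.11 and that of miR-133a-3p was -0.05 in these values.

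The other heart muscle miRNAs were taken as those encoded in myosin genes, miR-208a, miR-208b and miR-499, which mark heart muscle and accompany the myosin isoforms. Of the 5 tested of 6, 0 passed the adjusted threshold in limma, against 2.45% of all tested miRNAs. At an unadjusted limma p under 0.05, 1 was lower, against 5.12% of all. Of the 5, 4 lay below 0 and 1 above, against 45.2% of all below 0. The 4 were both strands of miR-208a and of miR-499, so the 5 are not independent of each other. Without control replicate 3, which is the same fit as the scan as a block, 5 of 5 lay below 0. The median log2 difference was -0.12, against 0.02 for all tested miRNAs. MiR-208a-3p, from the gene of the fast alpha myosin, had log2 signals of 11.34, 11.51 and 11.43 in controls and of 11.13, 11.32 and 11.20 after MI, a difference of -0.21 ± 0.08 (limma adjusted p = 0.335). MiR-208a-5p, its partner strand, stood at -0.13 ± 0.07, with MI arrays below all controls as well. Such separation, lower after MI, was thus seen for 2 of the 5, against 9.8% of all tested miRNAs. These 2 are strands of the same hairpin and do not count as separate members. MiR-208b-3p, from the gene of the slow beta myosin, had a log2 difference of 0.22 ± 0.24, with controls between 8.29 and 9.23, and control replicate 3 the lowest. It was the member whose sign turned without that array. For miR-499-5p, the difference was -0.065 ± 0.11, and for miR-499-3p it was -0.12 ± 0.11. MiR-208b-5p was detected on no array. The interval of miR-133a-5p, from -0.59 to -0.21, thus overlaps that of miR-208a-3p, from -0.41 to -0.01.

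**Figure D5:**
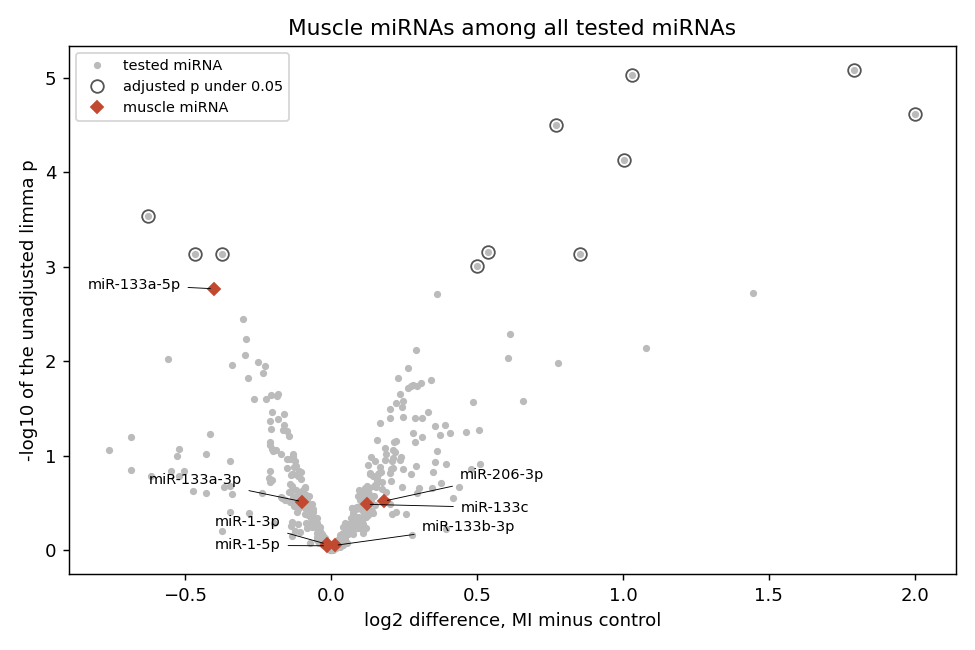
Log2 difference, MI minus control (horizontal axis), against -log10 of the unadjusted limma p (vertical axis) for all 449 tested miRNAs (grey), those with an adjusted p under 0.05 (circled) and the 7 tested muscle miRNAs (red diamonds). MiR-133a-5p is the diamond at -0.40, just under the circled miRNAs, and the other 6 lie between -0.10 and 0.18.

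Patterns over the 6 arrays were compared by Pearson's r of the log2 signal as a description, since arrays of 2 groups share their scaling. For miR-133a-5p the closest were miR-378b (r = 0.995), miR-30a-5p (0.968), miR-30e-5p (0.965), miR-30e-3p (0.964) and miR-30b-3p (0.934). They were picked as the highest r over all tested miRNAs, with 6 arrays each. In each of them every MI array lay below every control, as in miR-133a-5p and in 9.8% of all tested miRNAs. A step between groups in both miRNAs by itself raises r. Of these, miR-378b had a log2 difference of -0.23 and miR-30b-3p of -0.38, the only one of the 5 past the adjusted threshold in limma. MiR-1-3p and miR-133b-3p, annotated on different chromosomes, had an r of 0.968. MiR-133b-3p was closest to miR-1b (r = 0.970), which shares the miR-1-3p seed and differs from miR-1-3p by G17A. Whether the probes of miR-1-3p and miR-1b read each other's miRNA, and what part this had in these r values, was not tested. The r of miR-133a-3p with miR-133a-5p was 0.691, and that of miR-1-3p with miR-1-5p was 0.195. The closest to the remaining members were miR-30b-5p for miR-133a-3p, miR-138-1-3p for miR-1-5p, miR-351-3p for miR-133c and miR-466c-5p for miR-206-3p, with r from 0.856 to 0.997.

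Other cell types in the tissue were followed by marker miRNAs beside these values, since in bulk tissue fewer cells of a type and less RNA per cell cannot be told apart. MiR-223-3p, abundant in neutrophils, had log2 signals of 10.80, 10.89 and 10.95 in controls and of 11.64, 12.84 and 12.51 after MI (limma adjusted p = 0.0619). The 6 leukocyte markers did not move together. MiR-150-5p and miR-342-3p, abundant in lymphocytes, had log2 differences of -0.21 and -0.17 (limma adjusted p = 0.373 for each). In both, every MI array lay below every control, as in 9.8% of all tested miRNAs. MiR-142-3p, miR-142-5p and miR-155-5p lay above 0, at 0.21, 0.060 and 0.19, with overlapping groups. Signals were also summed per list, where the brightest markers weigh most. The log2 of the summed signal of the 6 was 13.94 to 14.12 in controls and 14.05 to 14.49 after MI. For 4 erythroid markers it was 14.25 to 14.73 and 14.57 to 15.04, for 2 endothelial markers 16.22 to 16.42 and 16.18 to 16.19, and for 5 smooth muscle and fibroblast markers 15.99 to 16.23 and 15.97 to 16.02. For miR-122-5p and miR-124-3p, which mark liver and brain, it was 5.46 to 6.04 and 5.63 to 6.12. In each of these lists 0 markers passed the adjusted threshold in limma, against 2.45% of all tested miRNAs. At an unadjusted limma p under 0.05 it was 1 of 6 leukocyte markers, miR-223-3p, against 13.6% of all tested miRNAs. In the other lists it was 0 of 4 erythroid, 0 of 2 endothelial, 0 of 5 smooth muscle and fibroblast and 0 of 2 liver and brain markers. Each marker was detected on some arrays. For the 8 muscle miRNAs the log2 of the summed signal was 18.40 to 18.62 in controls and 18.46 to 18.56 after MI. The brightest, miR-133b-3p and miR-1-3p, weigh most in it. The part of these cell types in the values of miR-133a-5p and miR-206-3p was not tested.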

How the data were processed

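Per the submitters' processing notes, the software was Agilent Feature Extraction 11.0.1.1. Per the file headers, the deposited spot values are intensity on a linear scale with background subtracted, and flags (0 or 1) mark outlier, saturated and well-above-background spots and detected miRNAs. The authors' processed values are log2 values with equal column medians (3.95) and upper quartiles (7.04). How they were normalized is not given in the sources used here. The number of arrays limits the precision.

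Outlier spots (8.32% to 9.63% per array) were left out and spots averaged per probe. Saturated spots numbered 0. A probe was detected with over 50% of spots well above background, and a miRNA with any such probe. Scaling set the arrays' 75th percentile, taken over 885 probes detected on every array, to a common level. Probes were summed per miRNA, a floor of 5.14 was set, and log2 was taken. Each array detected 446 to 472 miRNAs. MiRNAs detected throughout the controls or throughout the MI arrays were tested (449 of 758). Groups were compared with limma 3.58.1 (R 4.3.3, lmFit and eBayes, two-sided) with Benjamini-Hochberg adjustment over all 449. The script was tested on simulated data.

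The members, lists and rules were chosen with earlier results of these data known. All 8 members, the myosin-gene miRNAs and the closest patterns by r are named by rule, and miR-223-3p was singled out from its marker list after its values were seen. The comparison of strand ratios over 110 hairpins was added after seeing the data. Samples were not treated as paired by replicate number in the main comparison. Names are those of the array design (build rn4), while sequences and positions come from RefSeq tables of GRCr8. Other scalings, probe summaries, filters, floors, backgrounds, blocks and left-out samples were tried. Normexp was run on median spot and background signals, the pair used here. The miR-133b strand ratio was not computed, since its 5p strand was not detected in controls. The sources do not settle how the RNA was labelled, since a dye and a protocol of different kinds are named.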

Additional observations from a re-analysis of the deposited data

How the results depend on the processing

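The results were recomputed under 26 alternatives. The direction of miR-133a-3p, miR-133a-5p, miR-133c and miR-206-3p held in all 26, but not all of these could change it. Filters, floors, eBayes settings and the replicate block left these differences at their main values. The scan as a block was the same fit as leaving out control replicate 3, the only array outside the first scan. Of the muscle miRNAs, 0 passed in 23 and 1, miR-133a-5p, in the 3 others. These were the 75th percentile over all probes (-0.48), median scaling (-0.49) and eBayes with trend and robust settings (-0.40). Without single samples miR-133a-5p ranged from -0.48 to -0.36, miR-206-3p from 0.048 to 0.36, miR-133a-3p from -0.16 to -0.027 and miR-133c from 0.039 to 0.20. Over all 26, miR-133a-3p ranged from -0.19 to -0.0094, miR-133c from 0.030 to 0.20 and miR-206-3p from 0.048 to 0.38. Values near 0 turned sign. MiR-1-3p stood at 0.0016 with normexp, 0.052 with the header code as a block, 0.051 in the arrays of code 1 alone (chosen after seeing the data) and between -0.081 and 0.043 without single samples. MiR-1-5p stood at 0.14 with the code as a block, 0.13 in code 1 alone and between -0.12 and 0.084 without single samples. MiR-133b-3p stood at -0.063 with the percentile over all probes, -0.080 with median scaling, -0.057 with no scaling, -0.0011 with normexp, -0.046 in the software total signal, -0.042 with the scan as a block and between -0.051 and 0.064 without single samples. The miR-1 strand ratio changed by 0.086 with quantile normalization, 0.021 with normexp, 0.038 with the brightest probe, 0.11 in the authors' processed values, 0.0015 with outlier spots kept and between -0.083 and 0.084 without single samples. Over 15 alternatives the miR-133a strand ratio differed by 0.28 to 0.34, miR-133a-3p over miR-133b-3p by -0.16 to -0.011, miR-133a-3p over miR-133c by -0.32 to -0.070 and miR-206-3p over miR-1-3p by 0.096 to 0.36. MiR-133b-5p stood at 1.20 in code 1 alone, 0.063 with normexp and between 0.14 and 0.75 without single samples. The cause of these changes was not tested.

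Over all miRNAs 11 passed (8 higher, 3 lower), against 7 with no scaling, 7 in the software total signal, 5 without a filter, 6 with the higher floor, 3 with the code as a block, 5 with the scan as a block and 1 in code 1 alone. Median scaling and the percentile over all probes each gave 5 higher and 5 lower, and 0 lower miRNAs passed with the replicate number, the code or the scan as a block. Without single samples the count ran from 4 to 12. With the replicate number as a block, 3 passed, and miR-133a-5p stood at -0.40 (limma adjusted p = 0.177). Same-numbered samples correlated at 0.116, -0.036 and 0.113 in their deviations, and differently numbered samples at -0.551 to 0.518. With so few samples, these values cannot decide whether the numbers pair the samples.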
